A study of Mus musculus with 6 samples.

Results

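Transcripts of 10 genes of the gut epithelium were compared between mice without Cftr and their controls. Cftr is the chloride and bicarbonate channel whose loss causes cystic fibrosis. The 10 genes were the adhesion molecule Epcam, the keratins Krt8, Krt18, Krt19 and Krt20, the cadherin Cdh1, the claudins Cldn3 and Cldn7, the galectin Lgals4 and the junction scaffold Tjp1. The genes were chosen by name, and every probe set whose single gene symbol is one of these names was taken, 14 of the 12422 probe sets that are not array controls. All 10 genes were on the array, out of 8251 genes named by a probe set with 1 symbol. Each value is an Affymetrix probe set's scaled intensity, in arbitrary units. There were 3 Cftr null mice (-/-), of which replicates 1 and 3 were male and replicate 2 was female, and 3 Cftr control mice (+/+), of which replicates 1 and 2 were male and replicate 3 was female. All 6 were 40 days old and congenic on the black6 background, all had been given the liquid diet Peptamen since day 10 of life to keep the gut from blocking, and each array held RNA of the whole small intestine of 1 mouse. The labels do not say how Cftr was altered, so whether its probes lie in the altered part is not known.

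Simple epithelia such as the gut lining build their intermediate filaments from pairs of a type II keratin, here Krt8, and a type I keratin, here Krt18, Krt19 or Krt20. Neighbouring cells are sealed by tight junctions, in which claudins form the barrier strands and Tjp1 (ZO-1) ties them to actin, and are held by adherens junctions, in which Cdh1 (E-cadherin) binds across the gap. Epcam associates with Cldn7 and stabilises it, and loss of human EPCAM causes congenital tufting enteropathy. Lgals4 is a galectin of enterocytes that takes part in the delivery of proteins to the apical membrane.

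The Cftr transcript was at 325.9, 295.6 and 368.5 in null replicates 1 to 3, against 801.6, 1017.5 and 1002.0 in control replicates 1 to 3 (log2 difference -1.47, limma adjusted p = 0.00421). Another Cftr probe set had 29.5, 43.1 and 25.8 in null mice, against 12, 139.9 and 82.2 in control mice, and the groups overlapped. A further Cftr probe set was at most 16 in null mice and at most 33.6 in control mice. Both were too low to be tested. The 2%-trimmed mean was 500.3 on all 6 arrays. All 10 enterocyte markers of the array passed the filter on low values, and their summed level lay between 66504 and 105189 in null mice and between 116758 and 139185 in control mice. The groups did not overlap in this sum, and 0 of the 10 markers passed the test on its own. The groups also did not overlap in the sums of 7 of 13 other marker lists. The sums were lower in null mice for enteroendocrine cells (7270 to 9599 in null mice, 10824 to 12768 in control mice, 0 of 7 tested markers called) and macrophages (8910 to 9299 in null mice, 9744 to 12496 in control mice, 1 of 7 called lower). They were higher in null mice for Paneth cells (7038 to 9086 in null mice, 2441 to 5802 in control mice, 1 of 3 called higher), smooth muscle (22472 to 27053 in null mice, 14759 to 20777 in control mice, 1 of 8 called higher) and fibroblasts (14081 to 15522 in null mice, 11594 to 12962 in control mice, 0 of 8 called). They were also higher for B and plasma cells (24524 to 28622 in null mice, 20504 to 21344 in control mice, 1 of 5 called higher) and mast cells (4621 to 12292 in null mice, 790.9 to 975.9 in control mice, 3 of 5 called higher). A sum follows its brightest markers and leaves out genes that are not in its list. The Paneth cell sum held only Mmp7, Mptx1 and Pla2g2a. A brighter probe set for the defensin Defa23, outside that list, had 24676.7, 24515.7 and 23671 in null mice. In control mice it had 28871.5, 21355 and 27135.1 (log2 difference -0.07, limma adjusted p = 0.818). Its name marks possible cross-hybridization. The called macrophage marker was the brightest, Lyz2, at 3687 in null mice and 6598 in control mice. The Paneth cell list names another lysozyme, Lyz1, which was not found on the array. Whether the Lyz2 probe set also reads Lyz1 is not known. Of the 7 tested macrophage markers, 4 had differences above 0 and 3 below (median log2 difference 0.17). Tested markers were also mixed for B and plasma cells (3 above 0 and 2 below) and mast cells (3 above and 2 below). The same held for smooth muscle (6 above and 2 below), enterocytes (2 above and 8 below) and enteroendocrine cells (1 above and 6 below). Those of Paneth cells and fibroblasts were all above 0. The part of these differences in the values of the 10 epithelial genes was not tested. In RNA of whole tissue, fewer epithelial cells and less RNA per cell cannot be told apart.

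None of the 10 epithelial genes passed the test between null and control mice, in either direction. Of all 7601 probe sets tested, 1.13% were called higher and 1.87% lower in null mice, at a limma adjusted p under 0.05. Of the 14 probe sets of the 10 genes, 12 were tested, each above the filter level of 109.7 in all 6 mice. The other 2, second probe sets for Krt18 and Tjp1, were dim in every mouse. At an unadjusted p under 0.05 there were 0 of 12, where 17.3% of all tested probe sets had such a p. Groups overlapped in all 12, whereas 23.8% of all tested probe sets had groups that do not overlap. The median log2 difference of the 10 genes, each read by its brightest tested probe set, was 0.07, beside 0.03 over all tested probe sets. Their differences ran between -0.24 and 0.35, with 6 above 0 and 4 below 0.

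A missed threshold does not show equal levels, so the 95% intervals of the fit are given as folds. Over the 12 probe sets these intervals, unadjusted for their number, ran from 0.64-fold to 1.88-fold. Each of the 12 therefore lay wholly inside a 2-fold change in either direction, as did 81.4% of all tested probe sets. The interval was wide for Krt18 (0.86-fold to 1.88-fold) and narrower for Lgals4 (0.85-fold to 1.26-fold).

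**Figure D1:**
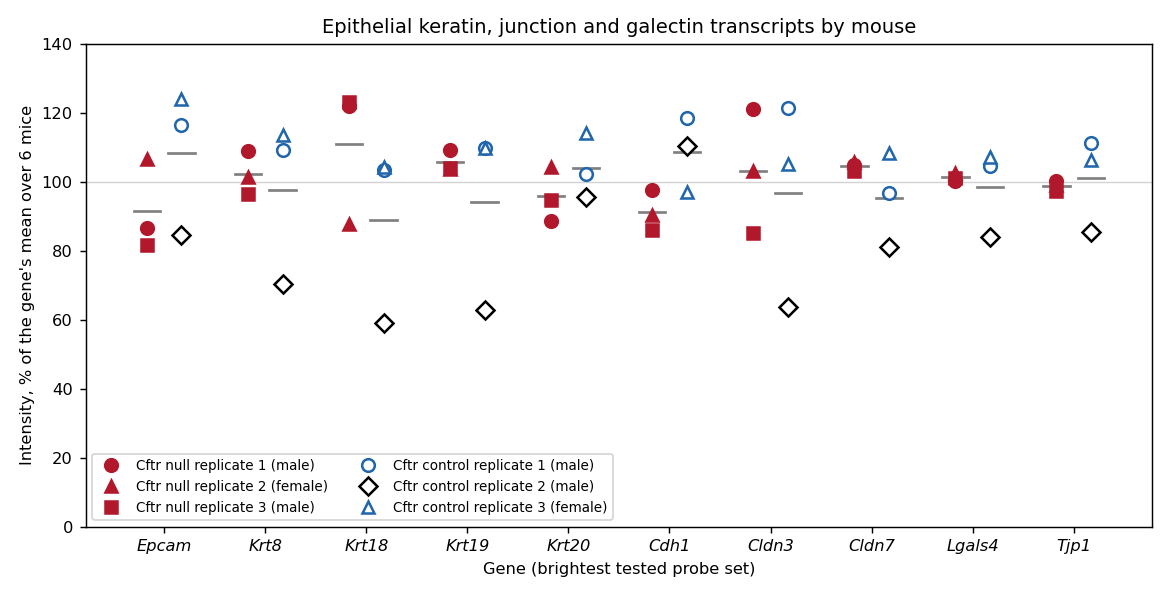
Intensity of each of the 10 genes in each mouse, as a percentage of that gene's mean over the 6 mice (brightest tested probe set; red filled points, Cftr null; open points, Cftr control; grey bars, group means). The black diamond, control replicate 2, lies below the 5 other mice in 7 of the 10 genes, and the groups overlap in all 10.

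Among the keratins, Krt8, the type II partner of the filaments, had 13841.9, 12906.5 and 12277.5 in null replicates 1 to 3, against 13887.5, 8935.7 and 14428.2 in control replicates 1 to 3. Null mice lay inside the range of the controls, and control replicate 2 was well below all others. The means were 13009 ± 787 in null mice and 12417 ± 3027 in control mice (SD, n = 3 each), a log2 difference of 0.10 (SE 0.19, limma adjusted p = 0.832). Krt18, the type I keratin made together with Krt8, had 2429.6, 1748.9 and 2456.0 in null mice, against 2058.3, 1180.1 and 2080.1 in control mice. The male null mice were the highest and the female null mouse lay between the controls, so the groups overlapped. This was the largest upward difference of the 10 genes, at 0.35 on the log2 scale (SE 0.24, limma adjusted p = 0.523). A second probe set for Krt18 was at most 11.5 in null mice and at most 16.1 in control mice and was not tested.

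Krt19, a type I keratin of the simple epithelia, had 13212.6, 12554.8 and 12587.2 in null mice, against 13289.5, 7608.9 and 13289.8 in control mice. The 3 null mice and 2 of the controls were nearly alike, and control replicate 2 alone was low. The log2 difference was 0.21 (SE 0.21, limma adjusted p = 0.658). A dimmer second probe set, whose name marks possible cross-hybridization, also had control replicate 2 lowest, at 979.1, 1082.8 and 909.6 in null mice and 1152.0, 617.7 and 1099.9 in control mice. Krt20, which in the gut is made by differentiated cells of the villus, had 13266.8, 15604.8 and 14207.7 in null mice, against 15335.2, 14315.0 and 17105.4 in control mice. Here control replicate 2 was not the lowest, and the female of each group was the highest of its group. The log2 difference was -0.12 (SE 0.12, limma adjusted p = 0.653).

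Krt8 and Krt18, partners in 1 filament, were lowest in control replicate 2, whereas the lowest mouse of Krt20 and Epcam was a null. Control replicate 2 was still the lowest control for Krt20 (88.3% of the mean of the 2 other controls) and Epcam (70.2%). The windows around the annotated starts of these 4 genes are shown. Each runs from 250 bases before to 50 bases after the start, 5′ to 3′ on the gene's strand, from RefSeq with the build GRCm38.p6, which had a window for 8 of the 10 genes. They lie at chr15:102004293-102004592 (minus strand), chr15:102027966-102028265 (plus strand), chr11:99438104-99438403 (minus strand) and chr17:87635729-87636028 (plus strand). Capitals mark matches on either strand to the GC box GGGCGG, the TATA box TATAAA or the Cdx-type motif TTTATNG, the binding letters of the intestinal factors Cdx1 and Cdx2. A TATA box and a Cdx-type match can share bases, as they do in Krt20.
Krt8: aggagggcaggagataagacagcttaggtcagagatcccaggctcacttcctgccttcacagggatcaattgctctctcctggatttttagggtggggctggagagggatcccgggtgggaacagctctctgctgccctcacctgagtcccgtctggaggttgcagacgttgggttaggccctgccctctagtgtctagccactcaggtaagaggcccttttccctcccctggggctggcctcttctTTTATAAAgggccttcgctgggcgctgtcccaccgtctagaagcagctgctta
Krt18: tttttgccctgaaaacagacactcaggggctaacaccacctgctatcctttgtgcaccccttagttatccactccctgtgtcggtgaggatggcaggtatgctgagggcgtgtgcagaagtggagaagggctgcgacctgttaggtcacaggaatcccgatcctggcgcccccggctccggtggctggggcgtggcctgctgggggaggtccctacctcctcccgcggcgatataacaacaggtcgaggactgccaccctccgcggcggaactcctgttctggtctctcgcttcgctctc
Krt20: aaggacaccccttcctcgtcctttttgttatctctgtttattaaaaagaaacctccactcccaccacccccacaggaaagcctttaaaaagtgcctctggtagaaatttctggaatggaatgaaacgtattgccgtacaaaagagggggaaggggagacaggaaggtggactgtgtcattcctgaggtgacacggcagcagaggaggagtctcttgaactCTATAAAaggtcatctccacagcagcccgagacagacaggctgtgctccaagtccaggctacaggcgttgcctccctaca
Epcam: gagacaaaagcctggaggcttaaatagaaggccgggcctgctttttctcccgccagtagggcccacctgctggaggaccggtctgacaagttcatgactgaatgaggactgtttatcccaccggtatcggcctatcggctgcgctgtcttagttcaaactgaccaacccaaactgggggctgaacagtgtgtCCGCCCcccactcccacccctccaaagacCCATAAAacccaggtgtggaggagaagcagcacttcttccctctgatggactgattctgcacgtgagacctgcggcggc

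The Krt8 window held 2 overlapping TATA box matches, that of Krt18 held 0 matches to the 3 motifs, that of Krt20 held 1 TATA box and 1 Cdx-type match, and that of Epcam held 1 GC box and 1 Cdx-type match. Of all 32851 windows of this length, 35.7% held a GC box match, 13.6% a TATA box match and 10.9% a Cdx-type match. A match is a run of letters and was not tested as a site.

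Of the genes of adhesion, Epcam had 2971.5, 3661.8 and 2809.2 in null mice, against 4006.2, 2902.6 and 4258.5 in control mice. Null replicate 3 was the lowest mouse, control replicate 2 stood among the nulls, and the 2 other controls were above all nulls. The means were 3148 ± 453 in null mice and 3722 ± 721 in control mice (SD, n = 3 each), with a log2 difference of -0.23 (SE 0.18, limma adjusted p = 0.558). Cdh1 had 608.6, 564.7 and 536.8 in null mice, against 739.1, 689.5 and 605.9 in control mice. The female control lay just below null replicate 1, and this one pair kept the groups from separating. It was the largest downward difference of the 10 genes, -0.24 on the log2 scale (SE 0.13, limma adjusted p = 0.375), and the 10 genes' lowest adjusted p.

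Of the tight junction genes, Cldn3, a claudin that seals the space between cells, had 4843.6, 4127.3 and 3407.2 in null mice, against 4860.5, 2554.6 and 4212.4 in control mice (log2 difference 0.13, SE 0.25, limma adjusted p = 0.835). A second, dimmer probe set with a name that marks possible cross-hybridization had 437.4, 305.5 and 377.9 in null mice and 414.5, 248.5 and 441.2 in control mice. Both put control replicate 2 lowest of the 6. Cldn7, the partner of Epcam, had 7592.4, 7664.7 and 7473.5 in null mice, against 7008.5, 5882.5 and 7849.3 in control mice. The nulls were close together, above 2 controls and below the third. The log2 difference was 0.14 (SE 0.13, limma adjusted p = 0.62), and this single probe set for Cldn7 also has a name that marks possible cross-hybridization. Tjp1 had 1492.5, 1475.0 and 1452.5 in null mice, against 1658.9, 1274.9 and 1585.7 in control mice, a log2 difference of -0.02 (SE 0.13, limma adjusted p = 0.948). The null mice lay between control replicate 2 and the 2 other controls. The second Tjp1 probe set was at most 6.9 in null mice and at most 12.1 in control mice.

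Lgals4 had 21676.8, 22180.0 and 21831.1 in null mice, against 22586.2, 18142.9 and 23181.4 in control mice. The null mice differed little among themselves and again lay between control replicate 2 and the 2 other controls. The means were 21896 ± 258 in null mice and 21304 ± 2753 in control mice (SD, n = 3 each), with a log2 difference of 0.05 (SE 0.12, limma adjusted p = 0.877). Some mouse strains carry Lgals6, a close copy of Lgals4 that was not named on this array, and whether the Lgals4 probe set also reads it is not known.

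**Figure D2:**
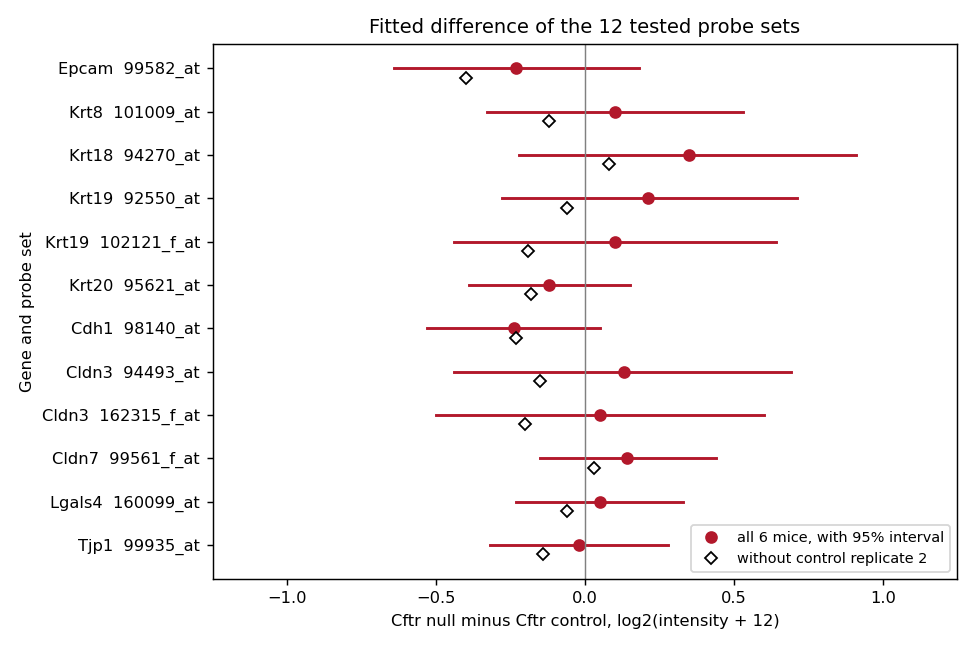
Fitted difference, Cftr null minus Cftr control, on the log2(intensity + 12) scale for the 12 tested probe sets (red points with 95% intervals, all 6 mice; open diamonds, without control replicate 2). All 12 intervals include 0, and without control replicate 2 the differences lie between -0.40 and 0.08.

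With all 6 mice, the coefficient of variation was larger in control than in null mice in 10 of 10 genes, beside 51.5% of all tested probe sets. Between control replicates 1 and 3 alone it was larger than in null mice in 4 of 10 genes, beside 34.0% of all tested probe sets. This setting was chosen after seeing the data and sets 2 mice against 3. The share over all tested probe sets also fell with it, from 51.5%, so the part of control replicate 2 alone is not known. The median coefficient of variation over the 10 genes was 6.20% in null mice and 16.8% in control mice, or 3.75% in control mice without replicate 2. Over all tested probe sets the median was 13.6% in null mice and 13.7% in control mice, or 8.73% without that replicate. In null mice the coefficient was smallest for Lgals4 (1.18%), Cldn7 (1.27%), Tjp1 (1.36%) and Krt19 (2.90%). The same genes had 12.9%, 14.3%, 13.5% and 28.8% in control mice. It was largest in null mice for Krt18 (18.1%), Cldn3 (17.4%) and Epcam (14.4%). Without control replicate 2, the control values, each from 2 mice, were 1.84% for Lgals4, 8.0% for Cldn7, 3.19% for Tjp1 and 0.00160% for Krt19. With 3 mice a group, no test of these spreads was made.

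Control replicate 2 was the lowest control in 9 of the 10 genes, beside 37.7% of all tested probe sets. It was the lowest of the 6 mice in 7 of the 10 genes (70.0%), where it was the lowest in 23.0% of all tested probe sets, and the highest in 0 of the 10, where it was the highest in 20.9% of all. It lay at 57.0% of the mean of the 2 other controls in Krt18, 57.3% in Krt19, 56.3% in Cldn3, 63.1% in Krt8 and 70.2% in Epcam. Such a value of at most 75% was found in 5 of 10 genes and in 12.7% of all tested probe sets. Cldn7, Lgals4 and Tjp1 were at 79.2%, 79.3% and 78.6%, Krt20 was at 88.3%, and Cdh1, at 103%, was not lower. Against the median of the 5 other mice, control replicate 2 stood at a median of -0.35 on the log2 scale over the 10 genes and of -0.00 over all tested probe sets, a value that the equal scaling of the arrays largely fixes.

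**Figure D3:**
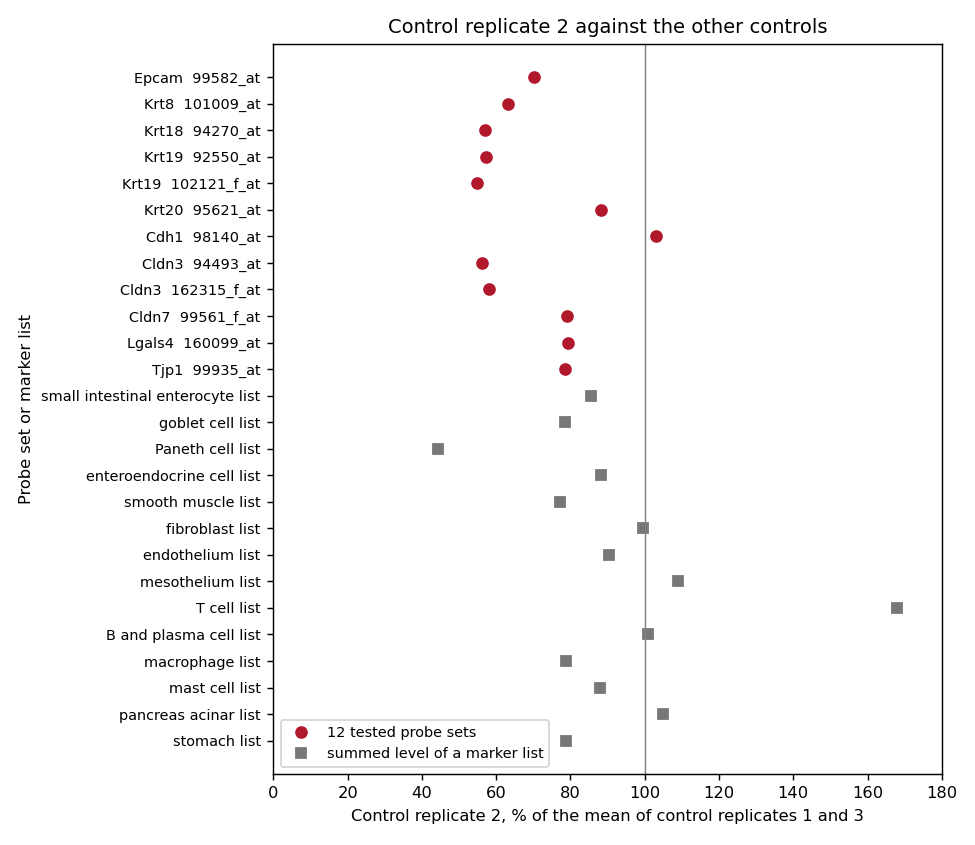
Level in control replicate 2 as a percentage of the mean of control replicates 1 and 3, for the 12 tested probe sets (red points) and for the summed intensity of 14 lists of cell type markers (grey squares). Of the 12 probe sets 11 lie below 100%, and among the marker lists the Paneth cell list (44.4%) and the T cell list (168%) lie farthest from it.

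Other transcripts also differed in control replicate 2. The summed level of 3 Paneth cell markers was at 44.4% of the mean of the 2 other controls, that of 8 smooth muscle markers at 77.2%, that of 7 goblet cell markers at 78.6%, and that of 10 enterocyte markers at 85.4%, while that of 8 fibroblast markers was at 99.5%. The brighter defensin Defa23, outside the Paneth cell list, was at 21355 in control replicate 2, against 28871.5 and 27135.1 in control replicates 1 and 3. The 6 T cell markers on the array summed to 723.5 in control replicate 2, against 445.4 and 418.2 in control replicates 1 and 3, but 5 of the 6 were too dim to be tested. The 3'/5' ratio of actin, a sign of RNA integrity, was 1.2 in this mouse and between 1.12 and 1.2 in the others. The title of this sample, a code that the labels do not explain, begins with another letter than the codes of the 5 other mice. The part of these differences in the values of the 10 genes was not tested.

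Without control replicate 2, the median log2 difference of the 10 genes was -0.13, beside 0.03 over all tested probe sets, and again 0 of 12 probe sets passed the limma test, where 0.895% of all tested probe sets were called higher and 1.14% lower. Every null mouse was then below both remaining controls in 5 of the 10 genes, beside 16.3% of all tested probe sets. These were Epcam, Krt8, Krt19, Lgals4 and Tjp1. Every null mouse was above both in 0 of the 10, beside 20.5% of all tested probe sets. Control replicate 2 is described apart because its values in these genes were low, and leaving out a low control by itself lowers the difference. The shares over all tested probe sets hold no such choice, so these counts are no test of the 10 genes. The difference was largest for Epcam, at -0.40 (SE 0.14, limma adjusted p = 0.217). It was -0.12 for Krt8, -0.06 for Krt19, -0.06 for Lgals4 and -0.14 for Tjp1, and 0.08 for Krt18 and 0.03 for Cldn7. Leaving out any 1 other mouse gave at most 1 gene with groups apart in each direction. Over all tested probe sets the shares were then 14.2% to 16.3% with nulls lower and 16.7% to 19.2% with nulls higher.

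The difference between genotypes was also set against sex. Of the 12 probe sets 0 passed the test of an interaction of genotype and sex, as did 0 of all 7601, in a design with 1 female in each group. With the males alone, the median log2 difference of the 10 genes was 0.15 and 0 of the 10 passed.

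The mean profile of the 10 genes over the 6 mice was most like those of Mag, Gm15772 and Coa3, with Pearson's r of 0.991, 0.990 and 0.987 over 6 mice and 6804 probe sets searched. All of these share the low value of control replicate 2. Coa3, an assembly factor of cytochrome c oxidase, was at 2845.2, 2868.4 and 2789.2 in null mice and 3027.3, 2146.3 and 3017.8 in control mice. Mag, a myelin protein, was dim, at most 155.4 in null mice and at most 173.4 in control mice, and its probe set has a name that marks possible cross-hybridization.

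**Figure D4:**
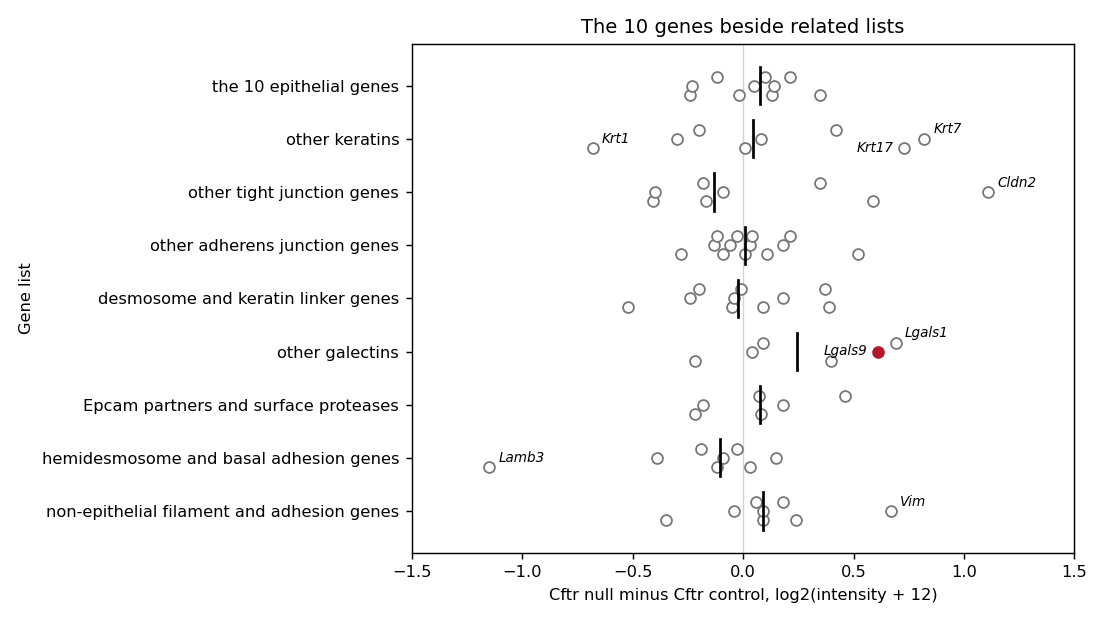
Fitted difference, Cftr null minus Cftr control, on the log2(intensity + 12) scale for the 10 genes and for the tested members of 8 related lists (1 point a gene; black bars, medians). The filled red point, Lgals9, is the single gene of these lists past the threshold, and Cldn2 and Lamb3 lie farthest from 0 without passing.

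The other genes of these structures were read from 8 lists. The list of other galectins also holds Lgals3bp, a protein that binds galectins but is not one. Of the 6 tested genes in that list, 1 rose and 0 fell (median log2 difference 0.25). It was Lgals9, a galectin with 2 sugar-binding domains that binds T cell receptors such as Tim-3 (Havcr2). Of the 2 probe sets for Lgals9, only the brightest tested one is described here. That probe set had 8890.5, 7966.3 and 8376.3 in null mice, against 5797.7, 5257.4 and 5448.0 in control mice. Every null was above every control, a 1.53-fold rise (log2 difference 0.61, SE 0.10, limma adjusted p = 0.0227). The call was kept without control replicate 2 (limma adjusted p = 0.0368) but lost when any 1 of the 5 other mice was left out (limma adjusted p between 0.0517 and 0.108). Lgals1, a galectin of stromal cells, was at 1341 ± 94 in null mice and 837.1 ± 159.6 in control mice (SD, n = 3 each) and did not pass (limma adjusted p = 0.0672). Lgals2, made by enterocytes like Lgals4, was at 20699 in null mice and 20212 in control mice.

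Of 8 other keratins tested, 0 passed (median 0.04). The brightest, Krt7, a keratin of ducts and other simple epithelia, had 1151.3, 840.4 and 1088.5 in null mice, against 570.1, 464.6 and 696.4 in control mice. The groups did not overlap, but the difference of 0.82 on the log2 scale (SE 0.19) missed the threshold (limma adjusted p = 0.0611), and with the males alone it was 1.10 and passed (limma adjusted p = 0.0442, the lowest of its alternatives, of which the highest was 0.198). Krt4 was at 448.1 in null mice and 419.6 in control mice. Krt5 and Krt14, of stratified epithelia, and 4 further keratins were too dim to be tested.

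Of 8 other tight junction genes tested, 0 passed (median -0.13). F11r, the junctional adhesion molecule JAM-A, was at 3810 in null mice and 4055 in control mice, and the barrier claudin Cldn4 at 1116 and 1428. Cldn2, a claudin that forms pores for cations and water and is made in the crypts, was chosen here after its values were seen. It had 709.5, 702.9 and 1388.2 in null mice, against 262.8, 606.5 and 406.9 in control mice, so that the groups did not overlap, with a log2 difference of 1.11 (SE 0.35) that did not pass (limma adjusted p = 0.155).

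Of 13 other adherens junction genes 0 passed (median 0.01), with beta-catenin, Ctnnb1, at 7867 in null mice and 8341 in control mice and p120-catenin, Ctnnd1, at 3615 and 3801. Of 10 genes of desmosomes and keratin linkers 0 passed (median -0.02), with desmoplakin, Dsp, which anchors keratin filaments, at 4218 in null mice and 4330 in control mice, and Perp at 2271 and 2687. Of 6 genes of Epcam partners and surface proteases 0 passed (median 0.08), with Spint1, an inhibitor of the protease matriptase, at 2910 in null mice and 3397 in control mice, groups not overlapping (limma adjusted p = 0.337), and the tetraspanin Cd151 at 1822 and 1601. Of 8 hemidesmosome and basal adhesion genes 0 passed (median -0.10), with the integrins Itgb1 at 7035 in null mice and 7217 in control mice and Itga6 at 888.6 and 873.9. In that list Lamb3, a laminin chain of the basement membrane, was chosen after its values were seen, at 175.9, 133.5 and 300.8 in null mice, against 424.5, 479.1 and 419.7 in control mice, groups that did not overlap (log2 difference -1.15, SE 0.27, limma adjusted p = 0.0694). Of 8 non-epithelial filament and adhesion genes 0 passed (median 0.09), with fibronectin, Fn1, at 833.0 in null mice and 702.8 in control mice and Snai2, a repressor of Cdh1, at 426.6 and 446.5. These lists were described by counts and medians and were not tested as sets.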

How the data were processed

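Total RNA of the entire small intestine of 6 mice, 3 Cftr null and 3 Cftr control, was extracted with TRIzol reagent and read on single-channel Affymetrix arrays, as stated in the labels. The deposited values are intensities on a linear scale; the software, background and scaling behind them are not given in the sources used here. With equal 2%-trimmed means on all arrays, they were not scaled again, and were turned into log2(value + 12), the pseudocount being the 10th percentile of the positive values. A fold is on that scale, which understates changes of dim genes. Of 12422 probe sets without controls, 7601 were tested, those that exceeded 109.7 (the table's 40th percentile) in 3 or more of the 6 arrays. The test was limma's moderated test (lmFit, then trended eBayes; limma 3.58.1 under R 4.3.3). It was two-sided, and p-values were adjusted by Benjamini and Hochberg's method over all 7601, with a threshold of 0.05. The functions were tested on simulated data.

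Probe sets were named from the platform annotation given, which can be old, and only where it lists 1 symbol (10833; 396 had several and 1193 none). The RefSeq gene table gave the same symbol for all 10 genes. A gene with several probe sets was represented by its brightest tested one. Names ending in a letter before _at were read as a mark of possible cross-hybridization. The genes, the lists, the tests and the alternatives were chosen with earlier results of these data known. The rule for other genes named was: of each related list the members that passed, or the 2 brightest; the 3 genes with the profile most like the mean of the 10; and Cftr. Krt5, Krt14, Lgals1, Lgals2, Cldn2, Lamb3 and Defa23 were named after their values were seen. Alternatives were 2 other normalizations, 2 other pseudocounts, 2 other filters, sex as a covariate, males only, 2 other variance settings, leaving out each mouse with the same probe sets tested, and leaving out the marked probe sets. The coefficient of variation without control replicate 2 was added after seeing the data. The labels give no batch and no replicate numbers. The labels name separate mice, and their number limits the precision.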

Additional observations from a re-analysis of the deposited data

How the results depend on the processing

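In each of the 17 alternatives, 0 of the epithelial genes tested passed in either direction (10 genes in 16 of them, and 9 without the marked probe sets, where Cldn7 had none left), and 0 of the 12 probe sets passed the interaction of genotype and sex in the 8 alternatives that allow that test. Their median log2 difference, 0.07, ran from 0.05 to 0.15 under the other settings and from -0.13 (without control replicate 2) to 0.16 (without control replicate 3) when 1 mouse was left out. Probe sets called over the whole array, 86 higher and 142 lower in null mice, numbered 50 and 85 with males only, 49 and 92 with eBayes without a trend, and 17 to 68 and 35 to 117 when 1 mouse was left out. The direction of an uncalled difference turned for Lgals4 with quantile normalization (-0.01) and for Tjp1 with males only (0.02). When 1 mouse was left out it ran from -0.12 to 0.22 for Krt8, from -0.06 to 0.35 and from -0.19 to 0.26 for the brighter and the dimmer Krt19 probe set, from -0.15 to 0.31 and from -0.20 to 0.20 for those of Cldn3, from -0.06 to 0.11 for Lgals4 and from -0.14 to 0.05 for Tjp1. Epcam, Krt18, Krt20 and Cdh1 kept their direction in all 17, and Cldn7 in the 16 that tested it. Lgals9 was higher in null mice in all 17 and passed in 10; besides the mice left out, it was lost with males only (adjusted p = 0.148) and with eBayes without a trend (adjusted p = 0.0595). Krt7 passed with the stricter filter (adjusted p = 0.0493), which tests fewer probe sets, and with males only. Cftr passed in all 17. Why other results changed was not tested. No paired analysis was possible because the labels state no pairing of a null mouse with a control mouse. With 3 mice a group, the intervals given are what the design could resolve.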
